A study of Mus musculus with 4 samples.

Results

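The genes described here are 33 genes of glycolysis and of the response to low oxygen, chosen by name as a pathway list and not by their values. Earlier results of these data were known when the list was chosen. They are the glucose carriers Slc2a1 and Slc2a3, the glycolytic enzymes from Hk1 and Hk2 down to Pkm, the lactate dehydrogenases and lactate carriers, Pdk1, Pfkfb3 and Pfkfb4, the oxygen sensing genes Hif1a, Egln1 and Egln3, and the hypoxia targets Bnip3, Ddit4, Vegfa, Adm, Ankrd37 and Car9. All 33 have an entry among the 26809 genes of the table, and all 33 are among the 13509 genes counted as measured, with at least 1 TPM (transcripts of a gene per 1000000 transcripts, which accounts for gene length) in at least 1 library. RNA was taken from mouse embryonic fibroblasts (MEFs, C57BL/6 background) 5 days into reprogramming. The Sendai virus vector SeVdp(KOSMaB), which encodes Klf4, Pou5f1, Sox2 and Myc, drove the reprogramming in all 4 groups, and blasticidin S at 2 µg/mL selected the cells. Cells with a Kusabira Orange transgene, which encodes a fluorescent protein, were the control, and the other cells carried an Osr2 transgene, which encodes a zinc-finger transcription factor. Each kind of cell was grown without or with 10 µM SB431542, which blocks the kinases of TGF-β type I receptors. This gives 4 groups of 1 library each. With 1 library per group there is no replicate check and no p-value, and a difference below compares libraries, whose spread within a group is unknown. The promoters that drive the transgenes are not given in the sources used here.

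Glycolysis turns glucose into pyruvate in the cytosol and yields ATP without oxygen. Pyruvate then enters the mitochondria or is reduced to lactate by lactate dehydrogenase and exported. When oxygen is low, prolyl hydroxylases such as the product of Egln1 no longer mark the transcription factor subunit HIF-1α for degradation, and HIF-1 raises the RNA of most glycolytic genes together with Vegfa, Adm, Car9 and Bnip3. Myc, which the vector carries, is also a known activator of glycolytic genes such as Ldha and Hk2. Reprogramming fibroblasts are known to shift their energy supply towards glycolysis.

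The libraries differed in depth and in make-up. In control cells 18282254 reads were recovered without SB431542 and 13358567 under it, and in Osr2 cells 14436946 and 1652412. A count of 0 reads allows up to 3 reads at these depths, which amounts to 0.164, 0.225, 0.208 and 1.82 of each 1000000 reads in the same order. Osr2 itself stood at 0.890, 0.764, 59.1 and 13.7 TPM, so the Osr2 libraries matched their labels. The 11 fibroblast markers summed to 1397, 1097, 8776 and 458 TPM as deposited, or 0.768%, 0.412%, 6.62% and 1.23% of the reads, while 0 of 8 markers of established pluripotency reached 1 TPM in any library. The 8 macrophage markers summed to 22.0, 31.0, 68.7 and 15.9 TPM as deposited, or 0.00276%, 0.00296%, 0.00943% and 0.00738% of the reads. Genes encoded by the mitochondrial genome held 1.74%, 0.694%, 2.42% and 15.1% of the reads, so the Osr2 library with SB431542 stood apart. Within each kind of cell, no entry of the table had more reads in the treated than in the untreated column, and the reads with SB431542 were 73.1% of those without it in control cells and 11.4% in Osr2 cells. Where it changes a call or moves a fold by over 1.5 times, a value of these genes is for this reason repeated after read subtraction, which removes each gene's treated reads from the untreated reads of the same kind of cell and rebuilds TPM.

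The median gene was also shifted between libraries on TPM as deposited. The 26809 genes summed to 345864 and 452145 TPM in control cells without and with SB431542, and to 270168 and 96038 TPM in Osr2 cells. These sums are unequal and below 1000000. A lower value as deposited therefore need not mean less RNA of that gene relative to the other genes. From control to Osr2 cells the median gene shifted by −0.80 in log2 when no inhibitor was given and by −3.51 when it was. From untreated to treated cells it shifted by 0.46 in the control and by −2.25 in Osr2 cells. A difference below is one of log2(TPM + 1) after each library was set to its median gene, unless TPM as deposited is named. A gene is called higher or lower at a difference of at least 1 in size, a size rule and not a test. A fold given for 1 gene is its ratio of reads on the same scale, with no pseudocount, and the exact 95% intervals cover counting error only.

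Several glycolytic genes were among the most abundant genes of every library. Pkm, the pyruvate kinase gene, led the 33 genes in all 4 libraries, with 897 TPM in control cells, 1160 TPM in control cells with SB431542, 405 TPM in Osr2 cells and 138 TPM in Osr2 cells with SB431542. Ldha, the main lactate dehydrogenase subunit, stood at 510, 686, 161 and 59.3 TPM in the same order, and Gapdh, the dehydrogenase of the triose phosphate step, at 296, 401, 166 and 21.1 TPM. Aldoa, the main fibroblast aldolase, stood at 279, 384, 217 and 9.88 TPM, and Eno1, the widely expressed enolase, at 272, 360, 120 and 16.6 TPM. Both Osr2 libraries were thus below both control libraries for each of these 5 genes on TPM as deposited. At the other end, Aldoc, the brain aldolase, stood at 0.946, 1.58, 0.459 and 0 TPM, Car9, a membrane carbonic anhydrase, at 0.357, 0.601, 1.02 and 0 TPM, and Ankrd37 at 1.51, 1.88, 0.973 and 0 TPM. Aldoa, Gapdh, Pgk1, Pgam1, Eno1, Ldha and Ldhb each have 1 to 4 named copies in the RefSeq annotation, so their levels are uncertain by any reads the counting gave to a copy.

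**Figure D1:**
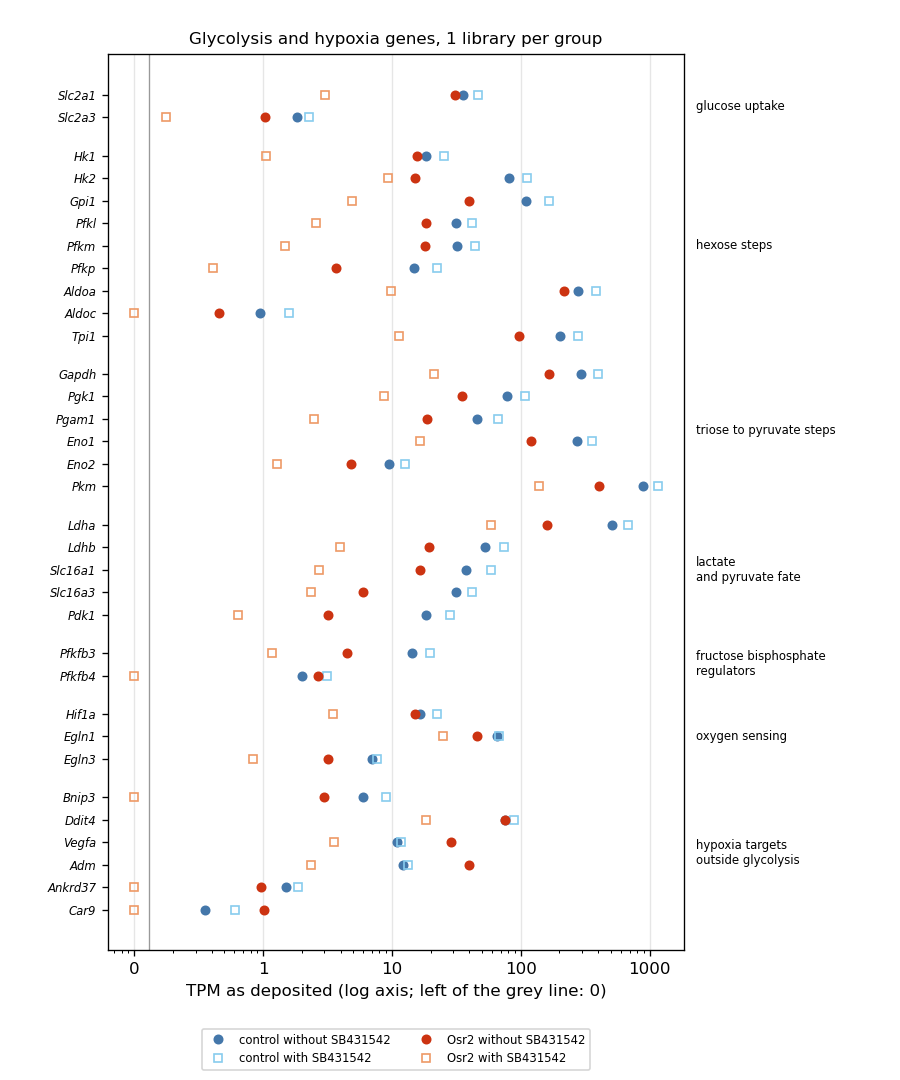
TPM as deposited (log axis, values of 0 at the left) of the 33 genes, ordered by role, with 1 point per library and no error, since each group has 1 library. The open orange squares (Osr2 with SB431542) lie to the left of the other 3 libraries for every gene, and Vegfa, Adm, Car9 and Pfkfb4 are the 4 genes whose filled red point (Osr2 without SB431542) lies to the right of the filled blue one.

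The 33 genes together held 1.10% of all reads in control cells (exact 95% counting interval 1.096 to 1.106) and 1.10% in control cells with SB431542 (1.094 to 1.105). They held 0.637% in Osr2 cells (0.6325 to 0.6407) and 0.567% in Osr2 cells with SB431542 (0.5558 to 0.5787). The share was thus lower in both Osr2 libraries than in both control libraries, and the intervals did not overlap. These shares are not relative to the median gene, which was itself shifted between libraries, so they cannot show whether these genes differ from all genes. Relative to the median gene, the median Osr2 difference of the 33 genes was −0.17 without SB431542 and −0.62 with it. For all measured genes it was −0.02 and −0.21. Without the mitochondrially encoded genes in the total, the 4 shares were 1.12%, 1.108%, 0.652% and 0.668%. Most of these reads belong to the enzymes and lactate dehydrogenases, which alone held 0.997%, 0.9991%, 0.5505% and 0.4863%. In bulk RNA, fewer cells of a type and less RNA per cell cannot be told apart, and the fibroblast and macrophage markers above held larger shares of the reads in each Osr2 library than in its control. With SB431542 single markers were divided. Relative to the median gene 4 of 11 fibroblast markers were higher and 1 lower, and 3 of 7 measured macrophage markers higher and 1 lower. Of all measured genes 19.9% were higher and 27.9% lower there. Col1a1 had 11655 reads in that Osr2 library and Lum 0. The part of these cell types in the share was not tested.

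Osr2 cells without SB431542 had more RNA of the secreted hypoxia targets Adm and Vegfa and less of Hk2, Pdk1, Slc16a3 and Pfkp than control cells, relative to the median gene. Of the 33 genes 3 were higher (9.09%), where 16.6% of all measured genes were higher, and 4 were lower (12.1%), where 11.4% of all measured genes were lower. The share of lower genes is near that of all genes, so the count itself is no result about these genes. Their median difference was −0.17, against −0.02 for all measured genes. On TPM as deposited, where the whole library is shifted, 2 were higher (7.78% of all genes) and 14 lower (30.6% of all genes), with a median of −0.83. After read subtraction 4 were higher (17.4% of all genes) and 4 lower (12% of all genes). By role the 6 hypoxia targets outside glycolysis had 3 higher and 0 lower, and the 22 genes of uptake, glycolytic steps and pyruvate fate had 0 higher and 4 lower.

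**Figure D2:**
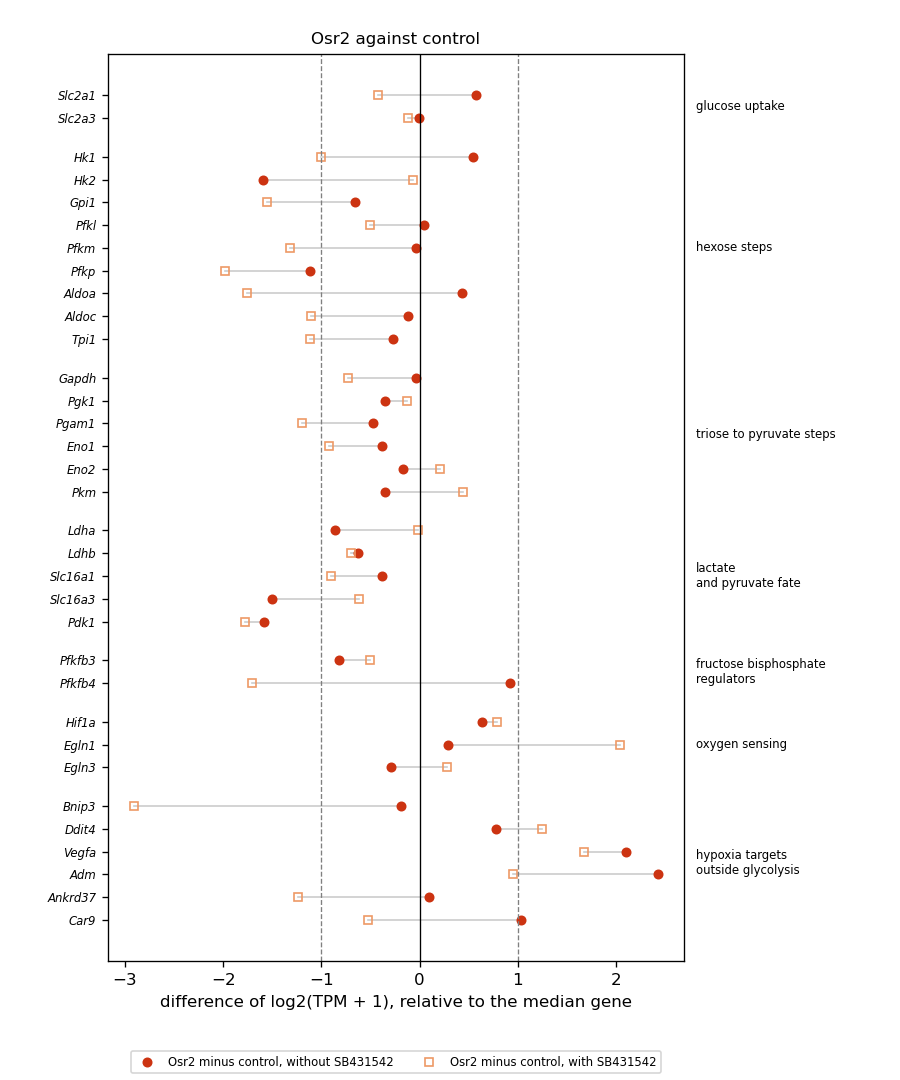
Difference of log2(TPM + 1) between Osr2 and control libraries, relative to the median gene, for each of the 33 genes without SB431542 (filled points) and with it (open squares), 1 library per group. Dashed lines mark the size rule of 1, which Adm, Vegfa and Car9 pass to the right and Hk2, Pdk1, Slc16a3 and Pfkp to the left without SB431542. With SB431542 12 genes pass to the left, and Egln1, Vegfa and Ddit4 to the right, the last 3 of which lie below 0 on TPM as deposited.

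Glucose uptake showed no call between Osr2 and control cells relative to the median gene, without or with SB431542. Slc2a1, the widely expressed glucose carrier GLUT1, stood at 35.7 TPM in control cells, 46.5 TPM in control cells with SB431542, 30.8 TPM in Osr2 cells and 3.01 TPM in Osr2 cells with SB431542. Its difference for Osr2 against control without SB431542 was 0.57, against −0.21 on TPM as deposited. Slc2a3, the high-affinity carrier GLUT3, stood at 1.83, 2.29, 1.04 and 0.176 TPM, with a difference of −0.01. Slc2a1 thus led Slc2a3 in all 4 libraries, by 19.6-fold, 20.3-fold, 29.5-fold and 17.1-fold, and the interval in Osr2 cells (24.2 to 36.3) overlapped those in control cells with SB431542 (16.9 to 24.4) and Osr2 cells with SB431542 (8.17 to 41.1), but not that in control cells (16.9 to 22.8).

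The 2 hexokinases, which trap glucose in the cell as glucose 6-phosphate, differed from each other. Hk2, the inducible hexokinase, stood at 81.4 TPM in control cells, 112.5 TPM in control cells with SB431542, 15.1 TPM in Osr2 cells and 9.40 TPM in Osr2 cells with SB431542. Relative to the median gene it was 3.10-fold lower in Osr2 than in control cells without SB431542 (2.92 to 3.29, a difference of −1.59), and −1.93 after read subtraction. Hk1, the constitutive hexokinase, stood at 18.3, 25.5, 15.6 and 1.05 TPM, with a difference of 0.54 in the same comparison. Within each library, a ratio that no scaling of the library can move, Hk2 over Hk1 was 4.46 in control cells (4.25 to 4.68) and 4.42 in control cells with SB431542 (4.18 to 4.66). In Osr2 cells it was 0.971 (0.903 to 1.04), or 0.723 after read subtraction, and in Osr2 cells with SB431542 it was 8.96 (6.74 to 12.1). The 2 control libraries were thus alike, with overlapping intervals, one Osr2 library lay below them and the other above. The exons of Hk1 overlap those of the antisense gene Hk1os, and how strand was used in counting is not given in the sources used here.

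The other steps from glucose to the triose phosphates differed less. Gpi1, the phosphoglucose isomerase, stood at 110.5, 166, 40.1 and 4.88 TPM in control cells, control cells with SB431542, Osr2 cells and Osr2 cells with SB431542, a difference of −0.66 without SB431542 that was −0.18 after read subtraction. Among the phosphofructokinases, which catalyse the committed step, Pfkl (liver type) stood at 31.3, 42.1, 18.5 and 2.56 TPM and Pfkm (muscle type) at 32.1, 44.3, 17.9 and 1.48 TPM, with differences of 0.04 and −0.04. Pfkp, the platelet type, stood at 15.0, 22.3, 3.66 and 0.406 TPM and was 2.35-fold lower in Osr2 cells (2.16 to 2.55, a difference of −1.11). After read subtraction Pfkp no longer passed the size rule, with −0.71. The balance of Pfkp to Pfkl within a library was 0.479 and 0.529 in the control libraries and 0.198 and 0.158 in the Osr2 libraries, so both Osr2 libraries lay below both control libraries, with intervals that did not overlap. Pfkp overlaps exons of the antisense gene Pitrm1. Aldoa differed by 0.43, Aldoc by −0.11 (0.43 after read subtraction), and Tpi1, the triose phosphate isomerase, by −0.27 from 203, 280, 96.5 and 11.3 TPM.

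The 6 genes from glyceraldehyde 3-phosphate to pyruvate lay close to the median gene in this comparison, with 0 higher and 0 lower and a range of −0.48 to −0.04. Gapdh was at −0.04, Pgk1, the phosphoglycerate kinase, at −0.35 from 77.7, 109, 34.9 and 8.69 TPM, and Pgam1, the phosphoglycerate mutase, at −0.48 from 45.9, 67.1, 18.8 and 2.50 TPM. Eno1 differed by −0.39 and Pkm by −0.35. Eno2, the neuronal enolase, stood at 9.56, 12.6, 4.83 and 1.29 TPM and differed by −0.17. All 6 were nevertheless below the control library on TPM as deposited, where Pgk1, Pgam1, Eno1 and Pkm passed the size rule as lower. For these genes the call therefore rests on the choice of scale.

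Of the 5 genes for the fate of pyruvate and lactate, 2 were lower in Osr2 cells without SB431542. Pdk1, the kinase that switches off pyruvate dehydrogenase, stood at 18.5 TPM in control cells, 28.3 TPM in control cells with SB431542, 3.17 TPM in Osr2 cells and 0.637 TPM in Osr2 cells with SB431542, and was 3.36-fold lower without SB431542 (2.997 to 3.78, a difference of −1.58). Slc16a3, the lactate exporter MCT4, stood at 31.4, 41.7, 5.98 and 2.34 TPM and was 3.02-fold lower (2.73 to 3.35, a difference of −1.51). Both kept this call after read subtraction, with −1.07 for Pdk1 and −1.80 for Slc16a3. Slc16a1, the carrier MCT1, stood at 37.6, 58.9, 16.4 and 2.71 TPM, with a difference of −0.39 that was 0.32 after read subtraction. Slc16a3 over Slc16a1 was 0.834 in control cells (0.788 to 0.883), 0.709 in control cells with SB431542, 0.364 in Osr2 cells (0.325 to 0.407) and 0.866 in Osr2 cells with SB431542 (0.622 to 1.21). The Osr2 library without SB431542 was the lowest, and its interval overlapped no other. After read subtraction this balance was 1.56 in control cells and 0.324 in Osr2 cells. Ldha lay just outside the size rule at −0.87, and at −1.14 after read subtraction. Ldhb, the heart type lactate dehydrogenase subunit, stood at 53.0, 74.2, 19.5 and 3.97 TPM and differed by −0.63.

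**Figure D3:**
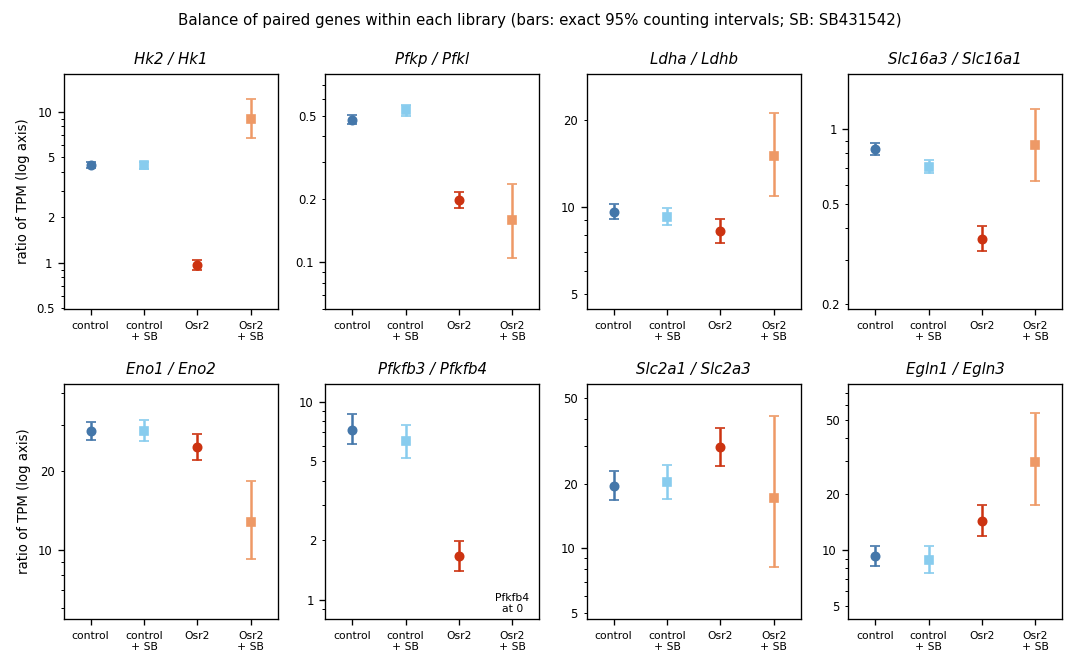
Ratio of TPM between 2 related genes within each library (log axes that differ between panels), for 8 pairs, with exact 95% counting intervals as bars and 1 library per group. Hk2 over Hk1 is 4.46 and 4.42 in the control libraries, 0.971 in Osr2 cells and 8.96 in Osr2 cells with SB431542, and Pfkp over Pfkl is lower in both Osr2 libraries. Pfkfb4 had 0 reads in Osr2 cells with SB431542, so that ratio is not drawn.

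Pfkfb3 and Pfkfb4 make and break fructose 2,6-bisphosphate, the strongest activator of phosphofructokinase, and they differed in opposite directions. Pfkfb3 stood at 14.5, 19.7, 4.46 and 1.18 TPM in control cells, control cells with SB431542, Osr2 cells and Osr2 cells with SB431542, with a difference of −0.82 without SB431542. Pfkfb4 stood at 2.00, 3.12, 2.68 and 0 TPM, and its difference of 0.92 is the nearest below the size rule. Pfkfb3 over Pfkfb4 was 7.24 in control cells (6.09 to 8.65), 6.30 in control cells with SB431542 (5.22 to 7.67) and 1.67 in Osr2 cells (1.40 to 1.99), so the Osr2 library lay below both. After read subtraction the balance in control cells was 12.6 (8.14 to 20.6). After read subtraction the Pfkfb4 difference was 1.39, past the size rule, on 183 reads in Osr2 cells against 21 left in control cells.

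Oxygen sensing genes had no call without SB431542. Hif1a, which encodes the regulated HIF-1 subunit, stood at 16.5, 22.6, 15.1 and 3.50 TPM and differed by 0.64, or by −0.12 on TPM as deposited. Egln1, the main prolyl hydroxylase of HIF, stood at 65.4 TPM in control cells, 67.7 TPM in control cells with SB431542, 46.1 TPM in Osr2 cells and 24.8 TPM in Osr2 cells with SB431542. Its difference of 0.29 was −0.50 as deposited and −0.81 after read subtraction, so its direction follows the scale. Egln3, a HIF-induced prolyl hydroxylase, stood at 7.06, 7.66, 3.21 and 0.841 TPM and differed by −0.29, and after read subtraction by −0.99, at the edge of the size rule. HIF is regulated mainly as a protein, which these RNA values do not measure.

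The hypoxia targets outside glycolysis held all 3 genes that were higher in Osr2 cells without SB431542. Adm, which encodes the vasodilator peptide adrenomedullin, stood at 12.1 TPM in control cells, 13.4 TPM in control cells with SB431542, 39.9 TPM in Osr2 cells and 2.37 TPM in Osr2 cells with SB431542. It was 5.73-fold higher in Osr2 cells (5.01 to 6.57, a difference of 2.42), 3.29-fold as deposited and 3.71-fold after read subtraction. Vegfa, the vascular endothelial growth factor gene, stood at 10.9, 11.8, 28.9 and 3.54 TPM and was 4.59-fold higher (4.20 to 5.03, a difference of 2.10), 2.64-fold as deposited and 2.79-fold after read subtraction. Both genes were higher on all 3 scales. Car9 was 4.97-fold higher (2.50 to 10.6, a difference of 1.03), but on only 33 reads in Osr2 cells against 12 in control cells, and on TPM as deposited its difference of 0.57 did not pass. After read subtraction it was 1.26, with 1 read left in control cells.

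The other hypoxia targets were not called in that comparison. Ddit4, an inhibitor of the growth kinase complex mTORC1, stood at 75.8, 88.1, 75.1 and 18.5 TPM in control cells, control cells with SB431542, Osr2 cells and Osr2 cells with SB431542, a difference of 0.78. As deposited it was −0.01, and read subtraction gave 0.15. Bnip3, which marks mitochondria for removal, stood at 6.00, 8.95, 2.96 and 0 TPM and differed by −0.19 (0.859-fold, 0.664 to 1.10), or by 0.23 after read subtraction. Ankrd37 differed by 0.10. Relative to the median gene, the direction of Bnip3 and Ankrd37 was within counting error. Vegfa over Ldha within a library, 2 genes known as HIF targets, was 0.0214 in control cells (0.0198 to 0.0231), 0.0172 in control cells with SB431542, 0.180 in Osr2 cells (0.170 to 0.189) and 0.0597 in Osr2 cells with SB431542 (0.0479 to 0.0736). Both Osr2 libraries lay above both control libraries, with intervals that did not overlap, also after read subtraction, which gave 0.0331 in control cells and 0.203 in Osr2 cells.

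The start regions of the genes that were higher or lower were searched for the core of the hypoxia response element, the letters ACGTG or GCGTG on either strand, which HIF is known to bind. The E-box CACGTG, a known site of Myc, contains ACGTG, so these motifs overlap. RefSeq (GRCm38.p6) start windows were found for 32 of the 33 genes, with 46 windows in all, and the 250 bases before each start were searched. The core was in 37 of these 46 windows (80.4%), belonging to 29 of the 32 genes, and in 38.6% of all 32851 RefSeq windows. The windows of these genes also held more CG dinucleotides, with a median of 14 against 6 over all windows, and both cores contain a CG. CACGTG was in 6 of the 46 windows (13.04%) and in 6.02% of all windows. A match is a description of the letters and no sign that a factor was bound. Stretches of 100 bases from the outermost start of 6 genes are shown, 5′ to 3′ on the gene's strand, because Adm and Vegfa had the largest differences above 0 without SB431542, Hk2, Pdk1 and Slc16a3 the largest below 0, and Ldha lay just outside the size rule. Each stretch was placed so that it held as many cores as possible and touched no annotated exon, so the stretches lie at different distances before the start. Capitals mark the core, read on either strand.
Adm (higher), chr7:110627535-110627634, plus strand: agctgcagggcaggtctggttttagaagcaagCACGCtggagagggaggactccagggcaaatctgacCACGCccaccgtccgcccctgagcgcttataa
Vegfa (higher), chr17:46032453-46032552, minus strand: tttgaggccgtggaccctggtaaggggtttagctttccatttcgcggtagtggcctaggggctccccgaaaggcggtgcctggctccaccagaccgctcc
Hk2 (lower), chr6:82774457-82774556, minus strand: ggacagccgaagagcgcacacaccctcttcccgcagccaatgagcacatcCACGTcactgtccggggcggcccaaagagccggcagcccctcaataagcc
Pdk1 (lower), chr2:71873096-71873195, plus strand: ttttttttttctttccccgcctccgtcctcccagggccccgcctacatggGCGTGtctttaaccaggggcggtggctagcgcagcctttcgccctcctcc
Slc16a3 (lower), chr11:120948953-120949052, plus strand: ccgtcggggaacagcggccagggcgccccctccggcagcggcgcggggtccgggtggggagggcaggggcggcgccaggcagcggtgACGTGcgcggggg
Ldha (just outside the rule), chr7:46845704-46845803, plus strand: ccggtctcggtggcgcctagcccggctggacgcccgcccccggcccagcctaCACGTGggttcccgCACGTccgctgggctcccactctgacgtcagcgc

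In the 250 bases before these starts Adm had 2 cores, Hk2 2, Pdk1 1, Slc16a3 2 and Ldha 5, while Vegfa had 0 in its outermost window and 2 in the window of its other listed start. The core was thus found before genes that were higher and before genes that were lower. The Ldha stretch holds the E-box CACGTG. An E-box reads as the core on both strands and was counted as 2 cores, and the 250 bases before the Ldha start held 2 E-boxes. The Slc16a3 and Ldha stretches lie inside longer gene models of the GENCODE annotation, outside their exons.

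With SB431542 the Osr2 library had fewer reads of most of these genes than the control library, also relative to the median gene. Of the 33 genes 12 were lower (36.4%), where 27.9% of all measured genes were lower, and 3 were higher (9.09%), where 19.9% of all measured genes were higher. Their median difference was −0.62, against −0.21 for all measured genes, and on TPM as deposited 32 were lower (88.1% of all genes) and 0 higher (0.348% of all genes), with a median of −3.50. After read subtraction the same genes were called, 12 lower (27.5% of all genes) and 3 higher (18.7% of all genes). With 3 reads in place of 0 the count of lower genes was 9, as Aldoc, Pfkfb4 and Ankrd37 lost the call, and with a pseudocount of 5 it was 8. Of the 17 enzymes and lactate dehydrogenases 8 were lower and 0 higher. The library is the shallowest, and its mitochondrial share of 15.1% moved with these differences. Their part in the result was not tested.

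Of the 12 lower genes 7 were enzymes of the hexose steps. Among these 7, Hk1, Gpi1, Pfkm, Pfkp, Aldoa and Tpi1 have exons that overlap an antisense gene, and Aldoc lost its call with 3 reads in place of 0. Of the 20 genes without any overlap 4 were lower (20%), where 26.9% of all measured genes without overlap were lower. Of the 13 with overlap 8 were lower (61.5%), where 26.7% of all measured genes with overlap were lower. The part of the overlap in these calls was not tested. Pfkp was 4.82-fold lower (3.44 to 6.97) on 34 reads, Aldoa 3.40-fold lower (2.94 to 3.97) on 180 reads and Gpi1 2.99-fold lower (2.59 to 3.46) on 197 reads. Pfkm was 2.62-fold lower on 31 reads, Tpi1 2.18-fold lower and Hk1 2.13-fold lower (1.63 to 2.83), and Pgam1, the one called gene of the lower steps, was 2.35-fold lower. Pdk1 was 3.89-fold lower (2.73 to 5.74), so Pdk1 and Pfkp were lower in both comparisons of Osr2 with control, which share no column but may share reads. Without SB431542 Pdk1 kept its call after read subtraction (−1.07), but Pfkp lost it (−0.71), as it did with a pseudocount of 5. Aldoc, Pfkfb4, Bnip3 and Ankrd37 had 0 reads in the Osr2 library, and no fold is given for them. The 5 genes at 0 reads, these and Car9, are 15.2% of the 33 genes, and 15.6% of all measured genes were at 0 there. At the share each had in the control library with SB431542, Bnip3 would have had 19.9 reads, Pfkfb4 15.0, Aldoc 5.07, Ankrd37 2.84 and Car9 1.36.

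Hk2 and Slc16a3, which were lower without SB431542, were not called with it. Hk2 differed by −0.07 (0.953-fold, 0.853 to 1.06), Ldha by −0.02 (0.988-fold, 0.931 to 1.05) and Slc16a3 by −0.62. The change of the Osr2 difference between the 2 conditions was not tested, as each is 1 pair of libraries. Pkm differed by 0.44 and Pgk1 by −0.13, against −0.73 for Gapdh and −0.93 for Eno1, so genes of neighbouring steps lay apart. Pkm over Gapdh was 3.03, 2.89 and 2.45 in control cells, control cells with SB431542 and Osr2 cells, and 6.56 in Osr2 cells with SB431542 (6.00 to 7.18). Ldha over Ldhb was 9.63, 9.24, 8.25 and 15.0 (10.9 to 21.1) in the same order, and Eno1 over Eno2 was 28.5, 28.6, 24.8 and 12.8 (9.23 to 18.3). In these 3 balances the interval of the Osr2 library with SB431542 overlapped none of the other 3, except that after read subtraction Ldha over Ldhb in control cells was 10.9 (9.68 to 12.3), which overlaps it.

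The 3 higher genes were Egln1, Vegfa and Ddit4, each of which was lower on TPM as deposited. Egln1 was 4.18-fold higher relative to the median gene (3.80 to 4.60, a difference of 2.04) and stood at 0.366 of the control level on TPM as deposited. Vegfa was 3.43-fold higher (2.72 to 4.30, a difference of 1.67), at 0.301 of the control level as deposited, and Ddit4 2.39-fold higher (2.05 to 2.78, a difference of 1.25), at 0.210. Egln1 over Hif1a, which does not depend on the scale, was 3.96, 2.999 and 3.05 in control cells, control cells with SB431542 and Osr2 cells, and 7.10 in Osr2 cells with SB431542 (5.85 to 8.66). Egln1 over Egln3 was 9.27, 8.84, 14.4 and 29.5 (17.4 to 54.4) in the same order of libraries. Both Egln1 balances were highest in Osr2 cells with SB431542, but after read subtraction Egln1 over Hif1a in control cells was 6.74 (6.00 to 7.58), which overlaps the value there. Adm lay just below the size rule at 0.95, and Hif1a differed by 0.79.

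In control cells none of the 33 genes passed the size rule between the columns with and without SB431542 before read subtraction. Relative to the median gene, of the 33 genes 0 were higher, where 0% of all measured genes were higher, and 0 were lower, where 0.577% of all measured genes were lower. On TPM as deposited 0 were higher (0% of all genes) and 0 lower (0.341% of all genes). No entry had more treated than untreated reads, so no gene could be called higher on either scale. The counts of 0 higher are thus no result. Relative to the median gene, differences ran from −0.41 for Egln1 to 0.18 for Slc16a1. The 2 columns may share reads, as described above, and the part of this in the differences was not tested. After read subtraction 0 were higher (9.99% of all genes) and 1 was lower (6.38% of all genes), namely Egln1 at −1.16, and the range widened to 0.94 for Slc16a1, with Vegfa at −0.96 and Adm at −0.89. The treated reads were 74.4% of the untreated reads at the median of the 33 genes and 76.4% at the median of all measured genes. Egln1 (56.4%), Vegfa (58.7%), Egln3 (59.1%), Adm (60.1%) and Ddit4 (63.3%) had the 5 lowest values of the 33. Hif1a at 74.4% and Bnip3 at 81.3% did not share this. Ankrd37 stood at 67.6% on 34 untreated reads (49.5 to 82.6), and Car9, the highest of the 33, at 91.7% on 12 (61.5 to 99.8). Ankrd37 and Car9 have too few reads to say whether they share it. These 5 values lay within the range from 52.6% to 95.9% that held all measured genes from the 5th to the 95th percentile.

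**Figure D4:**
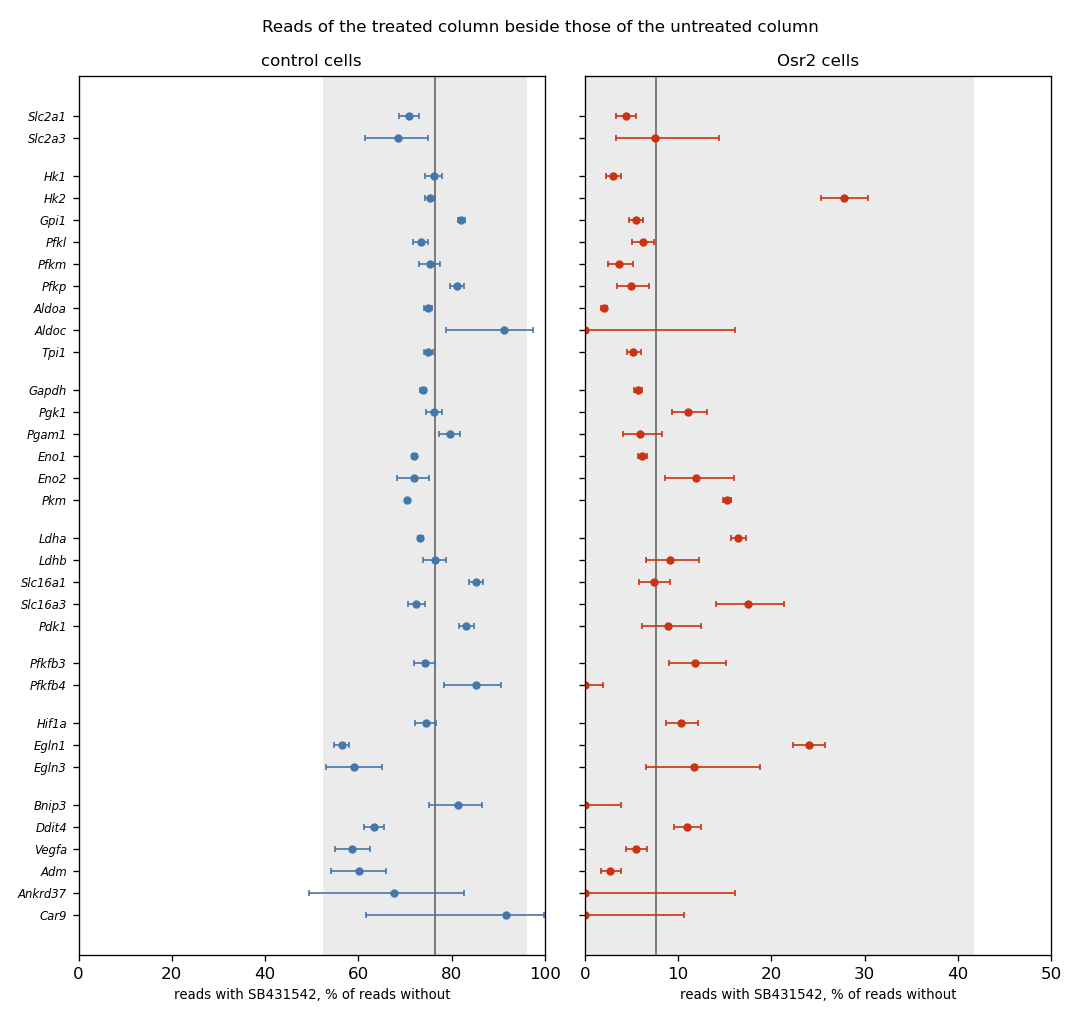
Reads in the column with SB431542 as a percentage of the reads in the column without it, for the 33 genes in control cells (left) and Osr2 cells (right, another scale), with exact 95% binomial intervals, which cover counting error only. The dark line is the median of all measured genes (76.4% and 7.64%) and the grey band their 5th to 95th percentile (52.6% to 95.9% and 0% to 41.6%). Egln1, Egln3, Vegfa, Adm and Ddit4 lie to the left in control cells, and Hk2 (27.8%) and Egln1 (24.0%) lie farthest to the right in Osr2 cells.

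In Osr2 cells the genes kept very unequal shares of their reads in the column with SB431542. Of the 33 genes 2 were higher relative to the median gene (6.06%), where 16.5% of all measured genes were higher, and 9 were lower (27.3%), where 26.7% of all measured genes were lower. The share of lower genes is thus near that of all genes. Hk2, at 2.96-fold (2.62 to 3.34, a difference of 1.53), and Egln1, at 2.56-fold (2.33 to 2.81, a difference of 1.35), were higher relative to the median gene, but on TPM as deposited both were lower, at 0.622 and 0.538 of the untreated level. Slc16a3 lay just below the size rule at 0.84 and Ldha was at 0.81. Aldoa was 4.60-fold lower (3.97 to 5.37, a difference of −2.19), Adm 3.54-fold lower (2.36 to 5.55, −1.77), Hk1 3.11-fold lower (2.39 to 4.14, −1.53), Pfkm 2.54-fold lower (−1.28) and Slc2a1 2.15-fold lower (1.68 to 2.79, −1.07), and Bnip3, Pfkfb4, Ankrd37 and Car9 were at 0 reads. The 2 hexokinases thus lay on opposite sides of the median gene, as did Adm and Egln1. On TPM as deposited 28 were lower (64.1% of all genes) and 0 higher (0.118% of all genes). After read subtraction the same genes were called, 2 higher (18.9% of all genes) and 9 lower (26.8% of all genes). The treated reads were 6.17% of the untreated reads at the median of the 33 genes, from 0% to 27.8% for Hk2, and 7.64% over all measured genes.

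**Figure D5:**
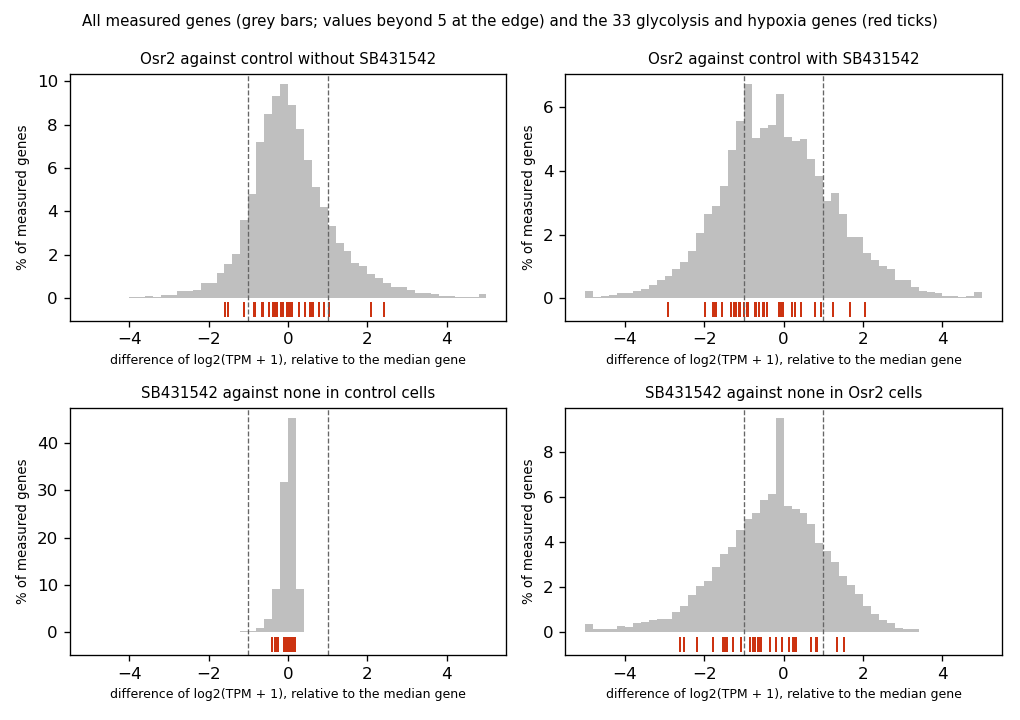
Differences of log2(TPM + 1) relative to the median gene over all 13509 measured genes (grey bars, as a percentage of genes) with the 33 genes as red ticks, for the 4 comparisons, 1 library per group. The ticks spread over the same range as the bulk of all genes, with medians of −0.17, −0.62, −0.01 and −0.60, and the differences of SB431542 in control cells are narrow for all genes. In control cells no entry had more treated than untreated reads, which bounds these differences from above.

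Other genes of the same pathways were read from lists of named genes, whose counts stand beside shares of all measured genes of 16.6% higher and 11.4% lower without SB431542, and 19.9% and 27.9% with it. On TPM as deposited those shares were 7.78% higher and 30.6% lower without SB431542, and 0.348% and 88.1% with it. After read subtraction they were 17.4% and 12% without it. Among 25 other hypoxia targets Osr2 cells had 9 higher and 2 lower without SB431542, with a median of 0.36, and 7 higher and 10 lower with it. Hmox1, which degrades haem, stood at 17.0 TPM in control cells and 188.5 TPM in Osr2 cells, a difference of 4.19. Plod1, a collagen lysyl hydroxylase, differed by 2.44. Tfrc, the transferrin receptor, differed by −1.71 and Ak4, a mitochondrial adenylate kinase, by −1.47, but after read subtraction Tfrc was at 0.22 and Ak4 at −0.84. On TPM as deposited 5 of the 25 were higher and 6 lower (median −0.36) without SB431542, and 0 higher and 22 lower with it, so the side on which most lay followed the scale. Hmox1 and Plod1 were higher without SB431542 there too, at 3.39 and 1.71.

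Among 8 measured of 10 other regulators of the hypoxia pathway, 1 was higher and 0 lower without SB431542, against 1 and 3 on TPM as deposited. That gene was Epas1, which encodes HIF-2α, at 1.03 TPM in control cells, 1.08 TPM in control cells with SB431542, 5.61 TPM in Osr2 cells and 0 TPM in Osr2 cells with SB431542, a difference of 2.41 without SB431542 (1.70 as deposited, 1.98 after read subtraction). Arnt, the partner subunit of Hif1a, differed by −0.31, Vhl, the ligase that removes hydroxylated HIF, by 0.08 and Hif1an by −0.30. Egln2 differed by 0.57, or by −0.035 after read subtraction. With SB431542 Arnt was at −1.04, Vhl at −1.07 and Egln2 at 1.48, the last at −1.95 on TPM as deposited. Egln1 and Egln2 were thus both higher there relative to the median gene, and both lower as deposited.

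Genes that lead glucose carbon elsewhere were mostly not called without SB431542. Of 13 genes of the pyruvate dehydrogenase complex, its regulators and the pyruvate carriers, 2 were higher and 0 lower, Pdk2 at 1.90 and Pdk4 at 1.80. After read subtraction Pdk2 was at 1.84 and Pdk4 at 0.998, just under the size rule, and the median of the list went from −0.12 to 0.52. On TPM as deposited the list had 2 higher and 5 lower without SB431542, and 0 higher and 12 lower with it. Of 8 pentose phosphate genes 1 was higher, H6pd at 2.13, and of 3 measured gluconeogenesis genes 1, Pck2 at 3.15, and both were also higher as deposited (1.36 and 2.37) and after read subtraction (1.64 and 3.39).

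Of 6 measured isozymes outside the 33 genes 1 was higher without SB431542, the muscle enolase Eno3 at 1.54, but on TPM as deposited it was at 0.77 and 0 were called, and after read subtraction 2 were higher and 1 lower. Of 7 measured glucose and lactate transporters 2 were higher and 1 lower, Slc2a10 (1.80), Slc2a9 (1.51) and Slc2a6 (−2.29). As deposited Slc2a9 lost its call at 0.93, with 1 higher and 2 lower in all. With SB431542 8 of the 13 pyruvate dehydrogenase genes and 4 of the 8 pentose phosphate genes were lower, among them Pdha1 at −2.06 and G6pdx at −2.61, and 3 and 2 were higher, against 0 higher in either list as deposited. Myc, which the vector carries and whose product is known to activate glycolytic genes, stood at 761, 1030, 377 and 171 TPM in control cells, control cells with SB431542, Osr2 cells and Osr2 cells with SB431542. Vector and cellular transcripts of Myc are not told apart by these values. Its difference was −0.21 without SB431542 (−1.01 as deposited) and 0.92 with it (−2.59 as deposited). Its part in the values of Hk2 and Ldha was not tested.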

How the data were processed

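Per the labels and the series design text, poly(A) RNA was sequenced on a NovaSeq instrument, and the authors mapped reads to GRCm38.p6 with STAR 2.7.3a, counted them per gene with featureCounts 2.0.0 and deposited TPM. The text names Ensembl release 75, but gene lengths recovered from the values equal GENCODE M21 exon lengths for all 33 genes (Egln3 up to a whole factor). Whole reads were recovered for 18883 of 18883 entries above 0, within 0.001 of a whole number. In 27304 entries, 26 turned into dates and 469 sharing 140 symbols were left out. A second table of 4 columns, which match no sample, was not used here.

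Libraries were set to their median ratio to the untreated control, taken from 7867 genes with mean TPM of 5 or more, with a pseudocount of 1. With 1 library per group no test was run. Recovery was tested on simulated data. All 33 genes are named, and from each other list up to 3 genes per direction with the largest differences, plus the core oxygen sensing genes. The genes and lists were chosen with earlier results of these data known. Alternatives were other pseudocounts (0.1, 5), filters (none, 5 TPM), scales (as deposited, mean TPM of at least 20), a size of 1.5-fold, read subtraction, mitochondrial genes left out and, added after seeing the data, 3 reads in place of 0 and overlapping genes left out. Python 3.11.15, numpy 2.4.6, pandas 2.3.3, scipy 1.17.1 and matplotlib 3.10.9 were used.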

Additional observations from a re-analysis of the deposited data

Results flagged for a closer look

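Pfkfb4 differed in opposite directions between Osr2 and control cells in the 2 conditions. Without SB431542 the difference of log2(TPM + 1) relative to the median gene was 0.92, on 183 reads in Osr2 cells and 142 in control cells. That value is below the size rule, and after read subtraction it was 1.39. With SB431542 the difference was −1.71, on 0 reads in Osr2 cells and 121 in control cells. This call was lost with 3 reads in place of 0 and with a pseudocount of 5. In that Osr2 library 15.6% of all measured genes were at 0 reads. Each pair is 1 library against 1, and the difference between the conditions was not tested.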

How the results depend on the processing

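No paired analysis was possible because each group has 1 library, which also leaves no replicate to leave out. The depth of the Osr2 library with SB431542 limits its low genes most. Values follow as median differences or numbers of the 33 genes, and the cause of each change was not tested.

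For Osr2 against control without SB431542 the median was −0.22 and −0.12 with pseudocounts of 0.1 and 5, −0.28 with a filter of 5 TPM, −0.16 with the scale from mean TPM of at least 20, −0.18 after read subtraction and −0.32 without overlapping genes. TPM as deposited gave −0.83 with 14 lower, and a size of 1.5-fold 6 higher and 8 lower. No share of all measured genes is given at a size of 1.5-fold. The counts at that size, here and below, therefore cannot show whether these genes differ from all genes. With SB431542 the same settings gave −0.71, −0.38, −0.56, −0.81, −0.67 and −0.32, the last with 4 lower. TPM as deposited gave −3.50, 0 higher and 32 lower, 3 reads in place of 0 gave −0.50, and 1.5-fold gave 5 higher. Egln1, Ddit4 and Vegfa reversed as deposited to −1.41, −2.19 and −1.49 (ratios of 0.366, 0.210 and 0.301). Aldoc and Ankrd37 reversed to 0.046 and 0.60 with 3 reads in place of 0.

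For SB431542 in control cells the median reversed to 0.43 as deposited and 0.021 with the scale from mean TPM of at least 20, and was −0.034 without overlapping genes. After read subtraction 1 was lower. In Osr2 cells the median was −0.42 with a pseudocount of 5 (5 lower), −0.46 with the filter of 5 TPM, −0.77 with the scale from mean TPM of at least 20, −0.62 after read subtraction, −0.19 with 3 reads in place of 0 and −0.048 without overlapping genes (2 lower). TPM as deposited gave −1.89, 0 higher and 28 lower, and 1.5-fold 5 higher and 17 lower. The counts at 1.5-fold again stand without a share of all measured genes and are no result about these genes. Hk2 and Egln1 reversed as deposited to −0.63 and −0.87 (ratios of 0.622 and 0.538), and Ankrd37 to 0.41 with 3 reads in place of 0.

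Without mitochondrially encoded genes the shares of reads were 1.12%, 1.108%, 0.652% and 0.668%, and after read subtraction the share in Osr2 cells was 0.646%. No filter left every count as it was. Read subtraction moved 52 single-gene ratios of reads beyond their counting interval and left 70 within it. Genes at 0 reads have no such interval and are not in these counts. Of the single-gene differences called, read subtraction reversed 0.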

Other observations

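Of the 33 genes, 13 have exons that overlap those of another gene in GENCODE M21, 12 of them on the opposite strand. In the comparison of Osr2 with control cells with SB431542, 8 of these 13 were lower, against 4 of the other 20. Over all measured genes, 26.7% of 4680 overlapping genes and 26.9% of 8337 others were lower.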
